A study of Mus musculus with 63 samples.

Results

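The genes described here are 40 genes that proliferating cells switch on to copy their DNA and to divide, chosen by their known roles in replication and mitosis with no threshold on a measured value. They comprise 15 S phase genes and 25 mitosis genes, and each of the 40 had a row of its own among the 24990 rows of every expression table. Their RNA was measured in 47 libraries from mouse: whole embryos at embryonic day 9.5 (E9.5) and E13.5, adult brain (the labels give no age, and the methods only a range in weeks for all experiments), primary mouse embryonic fibroblasts (mEFs) grown from E13.5 embryos, and RNA immunoprecipitates of Neuro2a cells, a mouse neuroblastoma line. Total expected counts ran from 7621335 to 33192002 a library.

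All mutants carry changes at the neighbouring genes *Chaserr*, a long noncoding RNA, and *Chd2*, which encodes a chromatin remodeller. *Chaserr*+/- and *Chaserr*-/- lack the promoter and first exon of *Chaserr* through CRISPR deletion, from 2 founder lines, which the labels do not tell apart. *Chd2*m/m carries a frameshift made with a guide to the third exon of *Chd2*, from 1 founder. For *Chaserr*-/- *Chd2*m/m the *Chaserr* deletion was made separately, in *Chd2*m/m mice. *Chaserr*+/- was compared with wild type (WT) in E9.5 embryos, E13.5 embryos, brain and mEFs with 3 libraries a group. *Chaserr*-/- mEFs and *Chaserr*-/- *Chd2*m/m mEFs had 3 libraries each and *Chd2*m/m mEFs had 2, and each of the 4 mEF mutants had its own 3 WT libraries, by the labels from the same pregnancy for *Chaserr*+/- and *Chaserr*-/- and from the same kind of cross for *Chd2*m/m. For the double mutant the titles name a *Chd2*+/m cross and those of its WT a *Chaserr*+/- *Chd2*+/m cross, and the libraries were joined as 1 set by their descriptions. The Neuro2a set held 2 libraries each of input RNA, of an IgG control precipitation and of a precipitation with an antibody to CHD2. No label says that 1 library stands for 1 animal, although the study describes its 3 *Chaserr*-/- mEFs as derived independently. The p-values below weigh differences between groups against the spread between libraries. In whole embryos and brain, fewer dividing cells and less cell cycle RNA in each cell cannot be told apart.

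S phase genes are switched on late in G1, when cyclin E with its kinase releases E2F factors from the retinoblastoma protein. CDC6 and CDT1 load the MCM2 to MCM7 helicase on origins of replication, PCNA clamps the polymerases to DNA, and ribonucleotide reductase (*Rrm1*, *Rrm2*) and thymidylate synthase (*Tyms*) supply nucleotides. Mitosis genes follow in G2, when cyclins A2, B1 and B2 with CDK1, the kinases PLK1, AURKA, AURKB and TTK, kinetochore proteins and spindle motors carry chromosomes through division. The checkpoint proteins BUB1, BUB1B and MAD2L1 hold back CDC20 and the ubiquitin ligase APC/C, with its partner UBE2C, until every chromosome is attached. Cells that leave the cycle, such as neurons, shut most of these genes off through complexes of E2F, retinoblastoma family and DREAM proteins on their promoters.

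The 2 groups of genes also differ in promoter sequence, and 4 promoters are printed as examples of the elements counted below. They are the 250 bases before and 50 bases after the annotated start, from RefSeq on GRCm38.p6, for *Cdc6* (chr11:98907901-98908200, plus strand), *Mcm6* (chr1:128359656-128359955, minus strand), *Ccnb2* (chr9:70421505-70421804, minus strand) and *Top2a* (chr11:99024140-99024439, minus strand). Capitals mark every match on either strand to the CHR element (TTTGAA or TTCGAA), the CCAAT box (CCAAT) or the E2F site (TTTCCCGC, TTTCGCGC, TTTGCCGC or TTTGGCGC). E2F matches on opposite strands can overlap, as in *Mcm6*.
Cdc6: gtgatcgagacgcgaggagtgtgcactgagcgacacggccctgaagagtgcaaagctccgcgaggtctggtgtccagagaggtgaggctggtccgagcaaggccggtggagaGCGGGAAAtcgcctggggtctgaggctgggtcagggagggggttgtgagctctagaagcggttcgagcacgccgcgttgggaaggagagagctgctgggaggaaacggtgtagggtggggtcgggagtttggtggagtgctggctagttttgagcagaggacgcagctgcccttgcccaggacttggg
Mcm6: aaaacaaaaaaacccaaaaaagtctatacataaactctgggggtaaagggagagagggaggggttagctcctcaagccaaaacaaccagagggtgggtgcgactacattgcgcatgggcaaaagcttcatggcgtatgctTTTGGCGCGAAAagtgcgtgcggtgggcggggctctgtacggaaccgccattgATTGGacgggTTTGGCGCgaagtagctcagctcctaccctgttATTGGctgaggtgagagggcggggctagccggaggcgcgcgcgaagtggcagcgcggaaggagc
Ccnb2: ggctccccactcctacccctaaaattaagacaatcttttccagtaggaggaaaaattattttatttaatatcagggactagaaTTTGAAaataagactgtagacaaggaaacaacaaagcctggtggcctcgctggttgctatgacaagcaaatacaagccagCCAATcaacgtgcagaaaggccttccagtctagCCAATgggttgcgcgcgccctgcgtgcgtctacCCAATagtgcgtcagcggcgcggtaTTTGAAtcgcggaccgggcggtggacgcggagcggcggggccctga
Top2a: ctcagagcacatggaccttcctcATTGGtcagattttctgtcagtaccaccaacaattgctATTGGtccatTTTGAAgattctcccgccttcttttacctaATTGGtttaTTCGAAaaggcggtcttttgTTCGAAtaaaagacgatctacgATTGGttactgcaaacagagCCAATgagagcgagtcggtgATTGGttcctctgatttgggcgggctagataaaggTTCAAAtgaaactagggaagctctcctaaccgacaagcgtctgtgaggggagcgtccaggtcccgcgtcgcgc

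*Cdc6* held an E2F match alone and *Mcm6* held E2F and CCAAT matches, while *Ccnb2* and *Top2a* held CHR and CCAAT matches and no E2F match. The promoter table had 34 of the 40 genes, with 14 promoters of S phase genes and 22 of mitosis genes. It did not list *Mcm4*, *Ccne2*, *Ccna2*, *Kif20a*, *Tpx2* and *Aurkb*. A CHR match was found in 77.3% of the mitosis promoters, in 14.3% of the S phase promoters and in 19.2% of all 32851 promoters. An E2F match was found in 42.9% of the S phase promoters, in 4.55% of the mitosis promoters and in 2.26% of all promoters. CCAAT boxes were frequent in both groups, with 86.4% and 64.3%, against 37.4% of all promoters. Mitosis promoters without a CHR match were those of *Birc5*, *Ccnb1*, *Cenpe*, *Mad2l1* and *Nusap1*. A match is a description of letters and not a tested site.

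Open chromatin was profiled with ATAC-seq in 12 mEF libraries, 3 each of *Chaserr*-/-, *Chaserr*-/- *Chd2*m/m and the WT of either set. In 11 of the 12 libraries all 40 genes had a called peak within 300 bases of an annotated start on mm9. The exception was WT library 2 of the double mutant set, with 36 of 40 genes. That library also had only 18661 peaks, which covered 36.2% of all 21865 promoters, whereas the other libraries covered 45.5% to 65.6%. With nearly every gene marked in every library, presence of a peak could not separate a mutant from its WT.

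The labels were checked before the results, and among the mutants only the check of *Chaserr*-/- is given here. *Chd2*, at 5.4, 5.82 and 6.41 TPM (a level scaled for gene length and library size) in the 3 WT libraries of the *Chaserr*-/- set, was at 18.15, 14.92 and 17.34 TPM in *Chaserr*-/- mEFs. The libraries labelled Neuro2a did not look like a pure neuroblastoma line. Hemoglobin *Hba-a1*, which a neuronal line should lack, was at 728.2 and 556.2 TPM in the 2 inputs, at 3106 and 2382 TPM in IgG and at 1601 and 1737 TPM in CHD2 precipitates. The oligodendrocyte gene *Mbp* was at 515 and 403.6 TPM in input, at 2509 and 1909 TPM in IgG and at 1293 and 1149 TPM in CHD2 precipitates, and the 17 macrophage markers summed to 248.2 and 202.6, to 1289 and 965.4 and to 624.7 and 554.6 TPM in the same order. One E9.5 library also stood apart. *Chaserr*+/- library 3 had a summed level of the 10 skeletal muscle markers of 44.05 TPM, led by *Actc1*, against 942.5 and 664.6 TPM in the others of its group. At E13.5 *Chaserr*+/- library 1 had an erythroid marker sum of 58140 TPM, against 19300 and 30530 TPM in the others of its group. In brain, library 3 had a neural progenitor marker sum of 341.6 TPM in WT and 719.3 TPM in *Chaserr*+/-, led by *Fabp7*, against 54.51 to 90.21 TPM in the other libraries.

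In WT, the median level of both groups of genes was highest at E9.5, lower at E13.5 and lowest in adult brain. In WT mEFs the S phase median, as a mean over libraries, lay below that of E13.5 in all 4 groups, and so did the mitosis median in 3 of them. The WT of the double mutant set had a mitosis median of 87 TPM ± 10.8 (SD, n = 3). Its libraries, at 74.6 to 93.4 TPM, overlapped those of E13.5, at 70.1 to 79.4 TPM. So did the WT libraries of the *Chaserr*-/- set, at 66 to 71 TPM. The median level of the 15 S phase genes was 231 TPM ± 3.79 (SD, n = 3) at E9.5, 101 TPM ± 5.8 at E13.5 and 4.65 TPM ± 0.118 in brain. For the 25 mitosis genes the medians were 150 TPM ± 4.16, 75.8 TPM ± 4.99 and 1.22 TPM ± 0.174. The S phase median thus stood above the mitosis median by a ratio of 1.55 at E9.5 and 1.34 at E13.5, and of 3.87 in brain. In the 4 WT mEF groups the order was reversed or even, with ratios of 0.898, 0.994, 0.976 and 0.743. All mEF libraries were made with another kit than the embryos, and the part of the kit in these comparisons was not tested. Neuro2a input had medians of 57.7 and 68.8 TPM for S phase and of 31.9 and 60.2 TPM for mitosis genes.

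**Figure D1:**
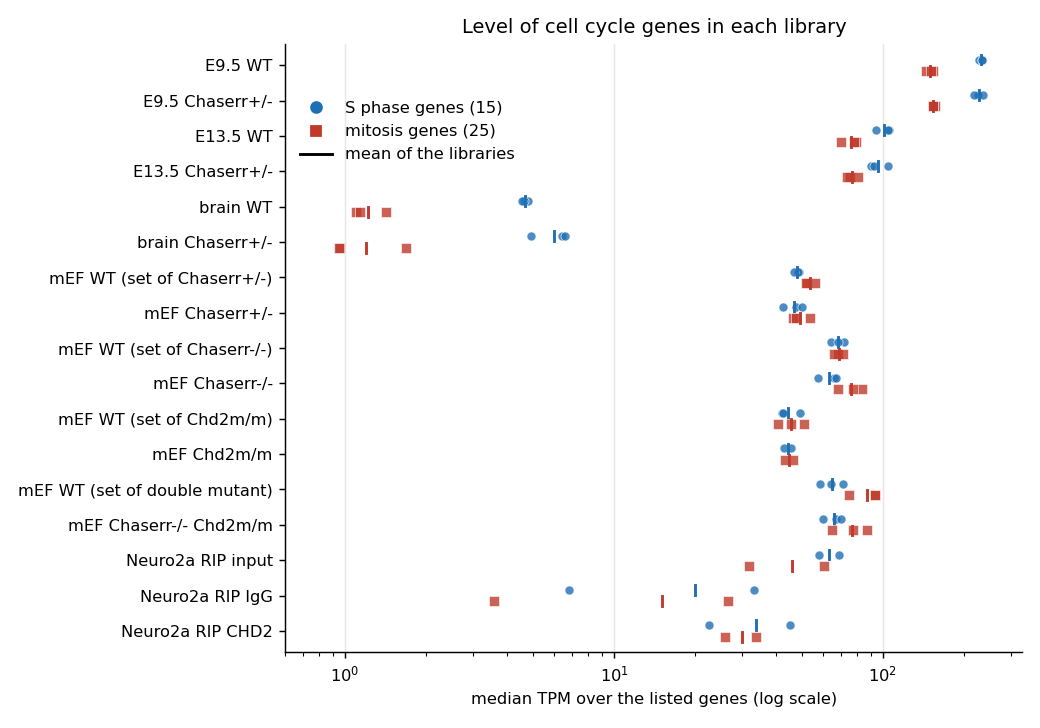
Median level of the S phase genes and of the mitosis genes (x axis, TPM, log scale) in each library, by group (y axis), with points for libraries and ticks for group means. E9.5 embryos lie highest, mEF mitosis medians between 40.7 and 93.4 TPM overlap those of E13.5 embryos, and brain lies lowest, with the mitosis median at 0.95 to 1.69 TPM.

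Single genes also differed between the embryonic stages and brain. *Pcna* was the most abundant S phase gene in embryos and brain, with 893.31, 864.69 and 849.44 TPM in the E9.5 libraries, 399.17, 436.48 and 422.48 TPM at E13.5, and 124.54, 114.58 and 96.89 TPM in brain. *Mki67*, whose protein coats mitotic chromosomes and marks cycling cells, was at 206.91, 213.74 and 183.1 TPM, at 96.56, 120.82 and 105.52 TPM and at 1.36, 1.35 and 1.03 TPM. *Top2a*, the topoisomerase that untangles sister chromatids, went from 429.57, 415.2 and 396.69 TPM through 165.58, 202.91 and 196.8 TPM to 0.9, 1.04 and 2 TPM. For each of these genes no library of one stage overlapped another. *Pcna*, which also serves DNA repair, and *Ccne1*, with 13.1, 16.67 and 18.6 TPM in brain, were the S phase genes that kept the highest levels there, and *Mad2l1*, with 7.1, 6.65 and 11.03 TPM, was the highest of the mitosis genes. *Cdc6* was at 0.18, 0.17 and 0.17 TPM in the same libraries, and *Bub1* at 0.11, 0.3 and 0.4 TPM.

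**Figure D2:**
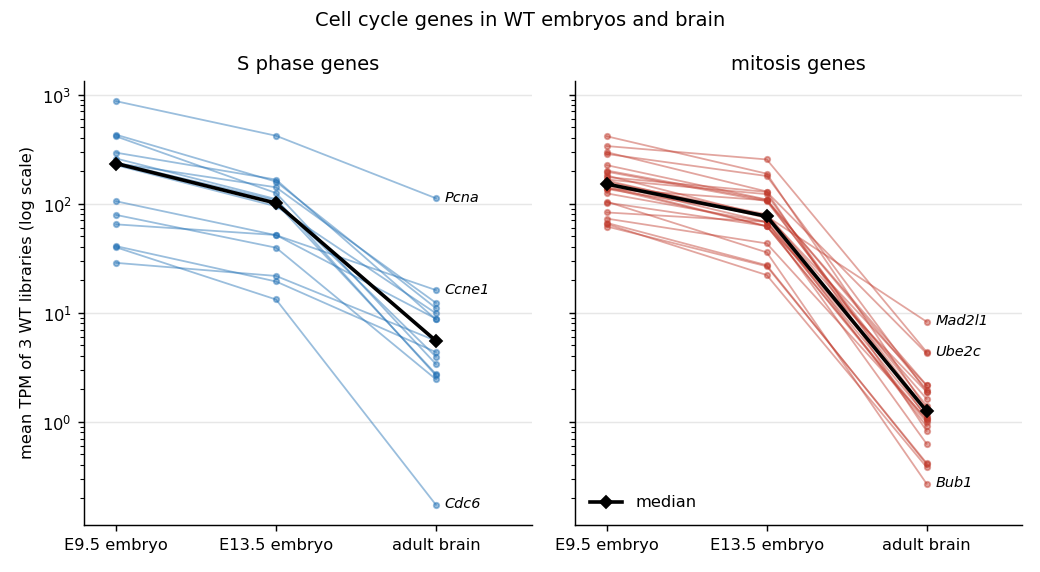
Mean WT level of each of the 40 genes (y axis, TPM, log scale) at E9.5, at E13.5 and in brain, S phase and mitosis genes apart, with the median as a black line. In brain *Pcna* stands at 112 TPM, above the next S phase gene *Ccne1* at 16.1 TPM, and *Cdc6* lies lowest at 0.173 TPM.

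Between E9.5 and E13.5 every one of the 40 genes fell. All 15 S phase and all 25 mitosis genes passed the test as lower (edgeR's quasi-likelihood test, Benjamini-Hochberg adjusted p under 0.05), where 38.3% of the 15761 genes tested were lower and 80.4% differed in either direction. The median log2 fold change was -1.32 for S phase genes and -1.24 for mitosis genes, against 0.06 for all genes. The smallest and largest drops were -0.58 and -1.98 among S phase genes and -0.54 and -1.8 among mitosis genes. *Cdc6* fell by 1.84 on the log2 scale (SE 0.0501, edgeR adjusted p 4.59e-09), *Rrm2* by 1.98 (SE 0.0612, adjusted p 8.32e-09) and *Mcm4* by 1.51 (SE 0.0459, adjusted p 7.83e-09). Among mitosis genes *Plk1* fell by 1.48 (SE 0.0443, edgeR adjusted p 7.22e-09), *Bub1b* by 1.41 (SE 0.0475) and *Cdc20* by 1.16 (SE 0.0419).

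Wider lists of the same pathways moved likewise. Of 51 further replication genes 51 fell, with *Exo1*, an exonuclease of repair, at -1.83, *Dbf4*, the activator of the CDC7 kinase, at -1.65 and the polymerase *Pole* at -1.62. Of 73 further mitosis genes 71 fell, among them the transcription factor *Mybl2* at -1.47. G1 regulators were split, with 8 of 24 tested higher and 14 lower. Over all 15761 genes tested, 6635 were higher and 6041 lower. The inhibitors *Cdkn1c* and *Cdkn2c* rose by 2.03 and 2.56 and the retinoblastoma family gene *Rbl2* by 1.83, whereas *E2f5* fell by 1.99, *E2f7* by 1.25 and *E2f3* by 1.17 on the log2 scale. Most markers were called higher over the same interval in 4 of 7 lists of other cell types. These were 17 of 17 macrophage, 8 of 8 neuron, 9 of 10 skeletal muscle and 9 of 10 fibroblast markers. Of 5 neural progenitor markers 4 were called lower and 1 higher. Among glial markers 2 were called higher and 2 lower, and among erythroid markers 1 was called higher and 1 lower. The part of this change in tissue make-up in the result was not tested.

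From E13.5 to adult brain all 40 genes fell further, with a larger median drop for the mitosis genes. All 15 S phase and all 25 mitosis genes were called lower, where 35.9% of 16215 genes were (edgeR, adjusted p under 0.05), with medians of -3.71 and -5.77 on the log2 scale against -0.03 for all genes. *Cdc6* fell by 6.1 (SE 0.174), *Mcm2* by 4.62 (SE 0.147) and *Mcm6* by 4.13 (SE 0.115), each with an edgeR adjusted p of 1.42e-06. *Birc5*, which encodes survivin, fell by 5.77 (SE 0.147), *Plk1* by 5.77 (SE 0.152) and *Ccna2* by 5.66 (SE 0.142). The S phase genes spread from -1.52 to -6.1 and the mitosis genes from -3.06 to -7.01. Of the wider lists 48 of 51 replication genes and 69 of 73 mitosis genes were called lower, with *Tk1*, thymidine kinase, at -6.72 and the kinesin *Kif2c* at -6.51. Fold changes were negative for 49 of the replication and all 73 of the mitosis genes. Among 24 G1 regulators *Rbl2* alone was called higher, by 1.18 (edgeR adjusted p 0.000344), where 5703 of 16215 genes were. Another 16 were called lower, including *Cdkn1c* by 6.29, *Cdk2* by 4.29 and *Cdk4* by 3.4. Markers of cell types differed as well, with median log2 fold changes of 8.03 for 6 glial, 1.64 for 8 neuron, 1.24 for 17 macrophage, -0.35 for 5 neural progenitor, -4.41 for 10 fibroblast, -7.31 for 8 erythroid and -7.35 for 10 skeletal muscle markers, and their part in the result was not tested. Brain libraries 1 and 2 were made with another kit than the embryos. Brain library 3 shared the kit of the embryos and had medians of 4.55 TPM for S phase and 1.42 TPM for mitosis genes, the latter the highest of the 3. It also had the highest glial marker sum, 12600 TPM against 7191 and 7905 TPM.

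WT mEFs of different sets were not at the same level. Of the 40 genes, 15 S phase and 24 mitosis genes differed among the 4 WT groups, where 88.1% of 14437 genes did (edgeR, adjusted p under 0.05), a share close to that of the genes described. The smallest p-values were those of *Tyms*, *Pcna* and *Ccne2* and of *Mad2l1*, *Aurkb* and *Bub1*. *Mad2l1* had means of 48.6, 41.4 and 51.7 TPM in the WT libraries of the *Chaserr*+/-, *Chaserr*-/- and *Chd2*m/m sets and of 173 TPM in those of the double mutant set. *Pcna* had 306, 294, 367 and 802 TPM in the same order. The tables of the double mutant set carry the name of another RSEM reference than the rest, and *Chaserr* was at 79.97 to 93.67 TPM in that WT group against 8.63 to 22.21 TPM in the other WT groups. In a test without that set, added after its levels were seen, 15 S phase and 18 mitosis genes differed where 78.3% of 13914 genes did. *Bub1* lost its call in that test with an edgeR adjusted p of 0.805, the highest of 19 fits that ranged down to 4.81e-36. Markers of other cell types differed between the WT groups too. In the same order the median sums were 389, 1446, 701 and 940 TPM for macrophage, 299, 1311, 603 and 667 TPM for skeletal muscle and 6366, 6378, 2502 and 5273 TPM for fibroblast markers, and their part was not tested. Each mutant is set only against its own WT below.

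*Chaserr*+/- embryos and brain showed no change of cell cycle genes that the test could detect. At E9.5 no gene at all was called (0% of 14500), none of the 40 had an unadjusted p under 0.05 by edgeR, and the medians were 0.04 for S phase and 0.04 for mitosis genes on the log2 scale. Over all genes 1.56% were higher and 1.57% lower at an unadjusted p under 0.05. The fold changes of the 40 genes ran from -0.1 to 0.17. Mutant and WT libraries did not overlap for 4 genes that were higher and 1 that was lower, where 5.34% and 4.28% of all genes did so. At E13.5 the background was 0.0314% of 15946 genes, again none of the 40 was called or had an unadjusted p under 0.05, and they ran from -0.06 to 0.29 with medians of 0.04 and 0.06. Only 0.0188% of all genes were called lower, none of them among the 40. Groups without overlap were found for 0 of the 40, where 5.74% of all genes were higher and 7.07% lower in this way. Without *Chaserr*+/- library 1 the medians were -0.07 and -0.01, and without its library 2 they were 0.09 and 0.12. In brain 36 of the 40 genes had enough counts to be tested, *Cdc6*, *Ccnb1*, *Ttk* and *Bub1* being too low, and none was called where the background was 0% of 14911 genes. DESeq2 called 0 of the 40 in each of these tissues as well. The brain gene with the smallest p was the helicase gene *Mcm6*, with 6, 6.51 and 6.72 TPM in *Chaserr*+/- and 8.55, 8.32 and 9.15 TPM in WT. All its mutant libraries lay below the WT libraries, and its difference was -0.45 (SE 0.186, edgeR unadjusted p 0.0444, adjusted p 1). It was the 1 gene of the 40 at that level, where 1.01% of all genes were higher and 1.46% lower. Groups without overlap were found for 1 S phase gene that was lower and 1 mitosis gene that was higher, where 5.11% and 4.11% of all genes were.

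In *Chaserr*+/- mEFs the genes leaned slightly lower without passing the test. None of the 40 was called where 0.173% of 13282 genes were and 0.0452% were lower, but 15 of 15 S phase and 22 of 25 mitosis genes had a negative fold change, with medians of -0.11 and -0.13 against 0 for all genes. Leaving out 1 library at a time gave mitosis medians from -0.19 to -0.07. An unadjusted p under 0.05 and a lower level was reached by 1 S phase and 5 mitosis genes. Over all genes 3.12% were lower and 5.25% higher at that level. The mutant libraries lay wholly below WT for 2 S phase and 9 mitosis genes, where 6.85% of all genes did so, and wholly above it for 0, where 7.65% did. *Ccnb2*, cyclin B2, was at 61.54, 63.87 and 72.1 CPM (counts scaled to library size but not to gene length) in *Chaserr*+/- and at 87.44, 85.72 and 88.48 CPM in WT, without overlap. Its difference was -0.41 (SE 0.0847) with an edgeR adjusted p of 0.119, and over the 14 fits the adjusted p ran from 0.0231 with DESeq2 to 0.567 without WT library 3. *Mki67* overlapped between groups, with 337.5, 466.2 and 526.1 CPM against 506.1, 509.4 and 480.6 CPM. Skeletal muscle markers moved with the mutant, all 10 with an unadjusted p under 0.05 and a median sum of 504 TPM against 299 TPM, none of them called, and their part in the result was not tested.

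Among the mEF mutants *Chaserr*-/- had the widest spread of fold changes, in both directions within both groups of genes. None of the 40 was called by edgeR, where 0.118% of 13580 genes were, 0.0221% higher and 0.0957% lower, but the lowest adjusted p of the 40 was 0.0522, and an unadjusted p under 0.05 was reached by 3 S phase genes higher and 3 lower and by 11 mitosis genes higher and 3 lower. Over all genes those shares were 17.7% higher and 16.1% lower. The groups did not overlap for 3 S phase genes higher and 6 lower and for 13 mitosis genes higher and 4 lower, where 21.8% and 21.4% of all genes did so. DESeq2 called 3 S phase genes, 2 of them higher, and 11 mitosis genes, 8 of them higher, where it called 21.7% of the 11909 genes to which it gave an adjusted p, 12.7% higher and 9.09% lower. The median was -0.06 for S phase and 0.27 for mitosis genes, against -0.02 for all genes.

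*Mad2l1* had the largest difference of the 40. It was at 118.6, 56.56 and 72.4 CPM in *Chaserr*-/- and at 44.36, 38.53 and 39.41 CPM in WT, with no overlap and with mutant library 1 far above the other two, a difference of 1.02 (SE 0.24, edgeR adjusted p 0.0522). *Top2a* was at 317.1, 204.8 and 214.9 CPM against 161.6, 145.5 and 147.2 CPM, again without overlap and again highest in mutant library 1, a difference of 0.7 (SE 0.17, edgeR adjusted p 0.0522). The spindle motor gene *Kif11* had a difference of 0.65 (SE 0.163, edgeR adjusted p 0.0523). Among the mitotic kinases *Ttk* and *Aurka* had differences of 0.48 and 0.09, with edgeR adjusted p of 0.107 and 0.614, while the other two were lower, *Plk1* being at 61.4, 77.76 and 85.06 CPM against 105.1, 138.9 and 110.8 CPM and *Aurkb* at 63.66, 79.17 and 78.63 CPM against 107.1, 105.1 and 100.6 CPM. The differences of *Plk1* and *Aurkb* were -0.66 (SE 0.161, edgeR adjusted p 0.0522) and -0.5 (SE 0.129, adjusted p 0.0524).

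The cyclin B genes, partners of the same kinase, had fold changes of opposite sign. Neither passed the test, and they were not tested against each other. *Ccnb1* was at 255.8, 199.1 and 231.8 CPM against 187.4, 171.7 and 156.3 CPM, and *Ccnb2* at 96.41, 86.38 and 94.86 CPM against 128.7, 115.5 and 129.1 CPM. Neither overlapped, and the differences were 0.41 (SE 0.133, edgeR adjusted p 0.0716) and -0.43 (SE 0.117, adjusted p 0.0544). *Ccnb1* has a pseudogene with a row of its own, between which reads may have been split. *Cdk1* was higher by 0.48 (SE 0.124, edgeR adjusted p 0.0524). *Mki67*, the usual marker of proliferation, overlapped between the groups, with 821.2, 658.2 and 720.2 CPM against 734.8, 654.3 and 628 CPM (difference 0.12, SE 0.13, edgeR adjusted p 0.513).

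Among S phase genes *Cdt1* was at 17.45, 26.21 and 26.86 CPM against 39.17, 44.36 and 40.39 CPM, lower in every mutant library, a difference of -0.81 (SE 0.178, edgeR adjusted p 0.0522). *E2f1* was at 14.07, 17.59 and 16.44 CPM against 21.41, 24.26 and 22.6 CPM (-0.5, SE 0.153, edgeR adjusted p 0.0634). In the other direction *Ccne2*, cyclin E2, was at 42.61, 18.47 and 22.97 CPM against 14.67, 15.31 and 14.05 CPM, the gap resting mostly on mutant library 1 (0.93, SE 0.276, edgeR adjusted p 0.0612). *Pcna* was at 399.4, 237.4 and 252.4 CPM against 237.4, 191.6 and 186.7 CPM (0.53, SE 0.199, edgeR adjusted p 0.0984). *Mcm2* and *Ccne1* had differences of -0.26 and -0.11, with edgeR adjusted p of 0.218 and 0.552. The adjusted p of *Cdt1*, *Mad2l1*, *Top2a* and *Plk1* ran over 12 fits from 0.00208, 0.00114, 0.00304 and 0.00465 with DESeq2 to 0.18 without WT library 5. Without *Chaserr*-/- library 2, edgeR called 4 S phase and 13 mitosis genes, where it called 20.5% of all genes, and without library 1 it called 1 and 7, where it called 7.33%.

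**Figure D3:**
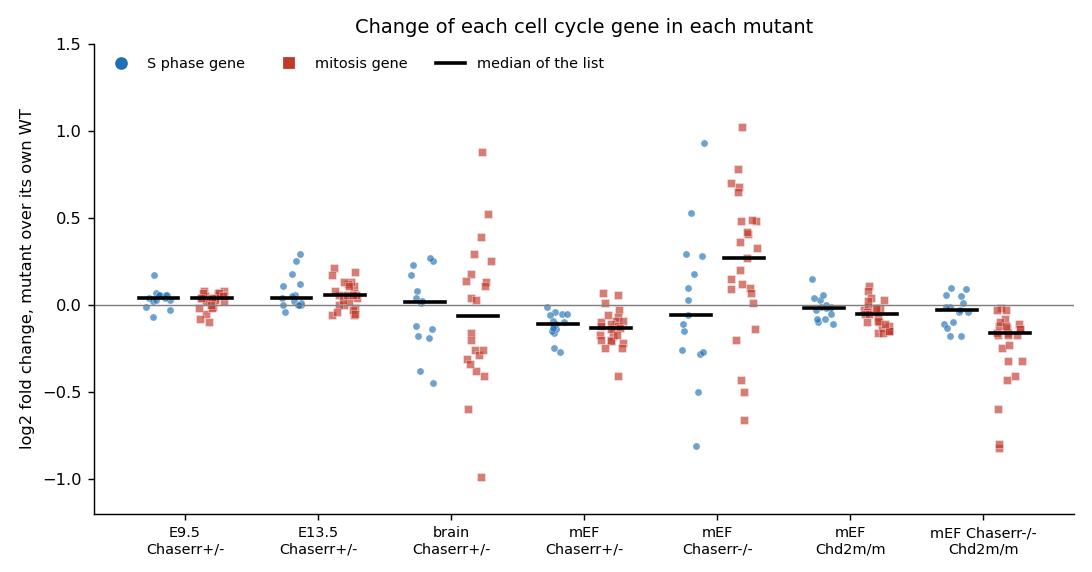
Log2 fold change of each of the 40 genes (y axis, mutant against its own WT) in each mutant comparison (x axis), S phase and mitosis genes apart, with the median as a line. *Chaserr*-/- mEFs have the widest spread among the mEF comparisons, from -0.81 to 1.02.

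In *Chaserr*-/- mEFs the median fold change was lower at higher GC content of exons, among the cell cycle genes as among all genes, with single genes such as *Ccnb2* (49.1% GC) off this trend. When all genes tested were divided into 4 equal bins of GC content, at 33.4% to 45.2%, to 49.9%, to 54.6% and to 72.9%, their median log2 fold changes were 0.44, 0.11, -0.16 and -0.42. The S phase genes had 0.53, 0.1, -0.19 and -0.5 in the same bins (3, 5, 4 and 3 genes) and the mitosis genes 0.56, 0.14, -0.14 and -0.43 (10, 10, 3 and 2 genes). The median GC content was 48.9% for S phase and 46.6% for mitosis genes, against 49.9% for all genes tested. In the other mEF sets the medians of all genes by bin lay between -0.06 and 0.04. With each library's trend with GC content and length removed, the median of the mitosis genes in *Chaserr*-/- was 0.07, *Mad2l1* had a difference of 0.6, *Top2a* of 0.27, *Cdt1* of -0.4 and *Plk1* of -0.34, and *Ccnb2* with -0.49 was the 1 gene called of the 40, where 1.05% of all genes were (edgeR adjusted p 0.0404). Whether the trend arose in the cells or in the libraries was not tested. Markers of other cells moved too, macrophage markers from a median sum of 1446 TPM in WT to 1051 TPM, skeletal muscle markers from 1311 to 730 TPM and erythroid markers from 239 to 67.7 TPM, and their part was not tested.

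**Figure D4:**
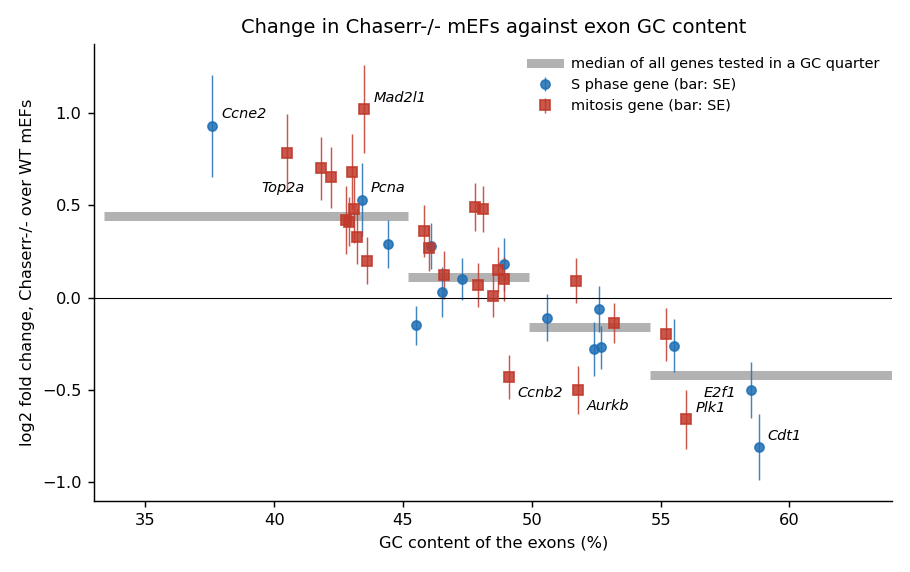
Log2 fold change in *Chaserr*-/- mEFs (y axis) against exon GC content in percent (x axis) for the S phase and mitosis genes, with the medians of all genes in 4 bins of GC content as grey bars. The bars step from 0.44 in the lowest to -0.42 in the highest bin, *Mad2l1* (1.02 at 43.5% GC) stands above them and *Ccnb2* (-0.43 at 49.1% GC) below.

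*Chd2*m/m mEFs had the smallest differences among the mEF mutants. None of the 40 genes was called where 0.0145% of 13777 genes were, 0.00726% in each direction, none had an unadjusted p under 0.05 by edgeR, and DESeq2 called 0. The fold changes ran from -0.16 to 0.15, with medians of -0.02 for S phase and -0.05 for mitosis genes, and 20 of 25 mitosis genes were negative. Over all genes 2.11% were higher and 2.4% lower at an unadjusted p under 0.05. The mutant libraries lay below WT for 2 S phase and 4 mitosis genes, where 10.4% of all genes did. They lay above it for 1 S phase and 0 mitosis genes, where 1425 of 13777 genes did. *Cdk1* had the smallest p, with -0.16 (SE 0.0722, edgeR adjusted p 0.937). *Mki67* was at 48.5 and 47.74 TPM against 60.07, 43.82 and 53.09 TPM, the mutant libraries lying within the WT range.

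In *Chaserr*-/- *Chd2*m/m mEFs the S phase genes stayed near 0 and the mitosis genes leaned lower. None was called where 0.0924% of 14076 genes were, 0.0497% higher and 0.0426% lower. Of the genes, 25 of 25 mitosis genes had a negative fold change with a median of -0.16, and the S phase median was -0.03. An unadjusted p under 0.05 was reached by 5 mitosis genes, all lower, where the background was 5.73%, and by 0 S phase genes. The mutant libraries lay below WT for 3 mitosis genes, where 7.4% of all genes did, and above it for 0, where 6.44% did. *Ccnb2* was at 89.92, 100.8 and 89.61 CPM against 132, 128.5 and 111.7 CPM, without overlap, a difference of -0.41 (SE 0.0994, edgeR adjusted p 0.159, ranging over 14 fits from 0.049 with DESeq2 to 0.584 without WT library 1). *Mki67* was at 506.6, 642.3 and 198.8 CPM against 837.8, 801.3 and 706.9 CPM, with mutant library 3 far below the others, a difference of -0.8 (SE 0.313, edgeR adjusted p 0.415). Without that library the median of the mitosis genes was -0.07, and without mutant library 2 it was -0.26. The inhibitor *Cdkn1a*, which encodes p21, was at 345.7, 336.2 and 370.4 CPM against 221, 230.6 and 249.1 CPM, higher in 3 of 3 libraries by 0.59 (SE 0.092, edgeR adjusted p 0.0573). Fibroblast markers were lower with an unadjusted p under 0.05 in 8 of 10 cases, macrophage markers in 10 of 17, and muscle markers were higher in 9 of 10, and their part was not tested.

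The effect of *Chaserr*-/- was then tested directly against each other mEF effect, in 1 fit of all 8 mEF groups and 15124 genes. Its effect on *Mad2l1* exceeded that of *Chaserr*+/- by 1.22 (SE 0.271, edgeR adjusted p 0.014), that of *Chd2*m/m by 1.18 (SE 0.286, adjusted p 0.0212) and that of *Chaserr*-/- *Chd2*m/m by 1.17 (SE 0.264, adjusted p 0.013). *Top2a* followed with 0.82, 0.85 and 0.88, with edgeR adjusted p of 0.0182, 0.0227 and 0.013. *Mad2l1*, *Top2a*, *Cdk1*, *Kif11* and *Tpx2*, a spindle assembly factor, were higher in all 3 of these tests, which share the *Chaserr*-/- libraries and their WT.

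Against *Chaserr*+/- the difference was higher for 2 S phase and 6 mitosis genes, where 7.93% of all genes were higher and 5.38% lower. *Pcna* had 0.68 and *Rrm1* 0.41, and *Ccnb1* had 0.64. Against *Chd2*m/m it was lower for 1 S phase gene, *E2f1* (-0.64), and higher for 5 and lower for 2 mitosis genes, where the background was 7.14% higher and 3.82% lower. The lower ones were *Aurkb* (-0.6) and *Ccnb2* (-0.45). Against *Chaserr*-/- *Chd2*m/m it was higher for 2 S phase genes, *Pcna* and *Ccne2*, lower for *Cdt1*, and higher for 10 mitosis genes, where the background was 10.2% higher and 5.38% lower. Those 10 included *Bub1* (1.1), *Cenpe* (1.28) and *Nusap1* (0.85). Without *Chaserr*-/- library 1 the counts and the shares of all genes were lower in each of the 3 tests, as given below. With the GC content and length trends removed, 2 of the mitosis genes called before remained called in each of the 3 tests, *Tpx2* against *Chaserr*+/- and the double mutant, *Ccnb2* against *Chd2*m/m, and *Mad2l1* each time, with 0.79, 0.73 and 0.68 (edgeR adjusted p 0.0207, 0.0482 and 0.0441), where 4.04%, 2.07% and 2.23% of all genes were called. The S phase gene *Mcm4* was called with that correction against *Chd2*m/m, at -0.43 (edgeR adjusted p 0.0397). Without that correction the tests called 8, 6 and 7 of 51 genes of the wider replication list, all higher. *Orc4*, a subunit of the origin recognition complex, had 1.27, 1.38 and 1.41. Of 73 genes of the wider mitosis list 14, 10 and 24 were called, of which 13, 10 and 24 were higher. With the correction, 1 replication gene and 2 mitosis genes of these lists were higher and 1 mitosis gene lower against *Chaserr*+/-. Against *Chd2*m/m 0 replication genes and 1 mitosis gene, lower, were called. Against the double mutant 0 replication genes were called, and 3 mitosis genes were higher and 1 lower.

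In Neuro2a, all 40 genes had a negative fold change in the IgG control against input, of which 15 passed the test, and CHD2 precipitates were above IgG for 13 of 15 S phase and 22 of 25 mitosis genes by fold change, most of which did not pass the test. The median of the S phase genes was 57.7 and 68.8 TPM in the input libraries, 6.81 and 33.1 TPM in IgG and 22.5 and 45.1 TPM in CHD2 precipitates. For mitosis genes it was 31.9 and 60.2, 3.59 and 26.6, and 25.9 and 33.7 TPM. IgG library 1 lay far below IgG library 2 in both groups, so values against IgG move with the IgG library that is left out. Leaving out a library leaves 1 in its group, which is then assumed to vary like the other groups.

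**Figure D5:**
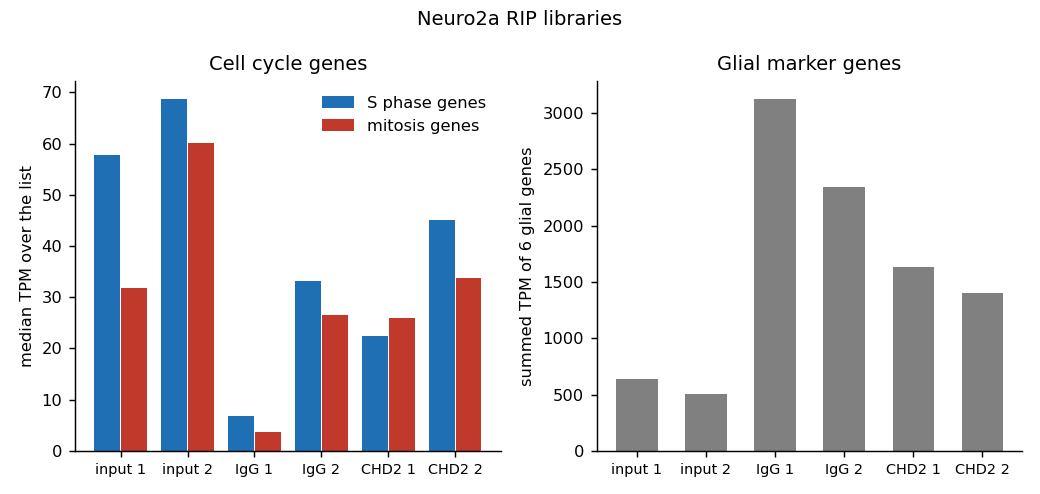
Median level of the S phase genes and of the mitosis genes (y axis, TPM) in each input, IgG and CHD2 library (x axis), as bars. A second panel gives the summed TPM of 6 glial markers in the same libraries. In the panel of cell cycle genes IgG library 1 lies lowest, with medians of 6.81 TPM for S phase and 3.59 TPM for mitosis genes.

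Against IgG, 1 S phase and 1 mitosis gene were higher in CHD2 precipitates (edgeR, adjusted p under 0.05), where 11.1% of 14906 genes were, and 0 were lower, where 0.376% were. With libraries of the same number treated as a block, 1 S phase and 8 mitosis genes were called, where 25.2% of all genes were. *Tyms* was at 137.33 and 168.81 TPM in CHD2, at 12.28 and 33.11 TPM in IgG and at 19.02 and 30.45 TPM in input, the CHD2 libraries standing above all others. Its difference from IgG was 2.59 (SE 0.438, edgeR adjusted p 0.0102) and that from input 2.13 (SE 0.43, adjusted p 0.0176). Over 14 fits the adjusted p against IgG ran from 9.72e-07 with DESeq2 to 0.131 without CHD2 library 2. *Tyms* has a pseudogene with a row of its own in the tables, between which reads may have been split. *Birc5* was at 228.39 and 231.95 TPM in CHD2, at 9.53 and 92.49 TPM in IgG and at 152.68 and 192.99 TPM in input, so that it was near its input level. Its difference from IgG was 3.1 (SE 0.814, edgeR adjusted p 0.0432), and over 14 fits that p ran from 2.05e-05 without IgG library 2 to 0.234 without CHD2 library 2. *Chd2* RNA itself was at 21.02 and 20.58 TPM in CHD2, 3.99 and 4.98 TPM in IgG and 3.34 and 5.43 TPM in input.

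The median difference from IgG was 0.46 for S phase and 1.1 for mitosis genes, against 0.02 for all genes. Without IgG library 1 these medians were -0.16 and 0.34, and without IgG library 2 they were 1.53 and 2.67. Of the wider lists 5 of 51 replication genes, among them *Uhrf1* (2.83), 4 of 73 mitosis genes, among them *Ckap2l* (2.07), and 6 of 24 G1 regulators were called, all higher, where 11.1% of all genes were. *Cdkn1b*, the inhibitor p27, had 3.25 (SE 0.415, edgeR adjusted p 0.00662) and *E2f2* 4.14 (SE 0.697, adjusted p 0.01).

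Relative to input, 14 of 15 S phase and 19 of 25 mitosis genes had a negative fold change in CHD2 precipitates, and all 40 did in IgG. In CHD2 precipitates 4 S phase genes were called lower, with *Mcm3* at -2.3 and *Mcm7* at -2.02, and 1 mitosis gene, *Ube2c* at -2.87, where 6.16% of all genes were lower, and *Tyms* was the 1 called higher, where 8.91% were. In IgG 7 S phase and 8 mitosis genes were lower, where 10.3% of all genes were, and 0 were higher, where 14.3% were, with *E2f1* at -2.66, *Mcm5* at -2.47, *Plk1* at -2.84 and *Prc1*, a cytokinesis factor, at -2.65. With libraries of the same number as a block, 8 S phase and 7 mitosis genes were called in CHD2 and 12 and 19 in IgG, where 28.2% and 36.7% of all genes were. The medians against input were -1.53 and -0.55 in CHD2 and -2.02 and -1.9 in IgG. Without CHD2 library 2 the mitosis median in CHD2 was -1.25, and without IgG library 2 and IgG library 1 that in IgG was -3.86 and -1.12. Over the same libraries 6 of 6 glial, 10 of 15 macrophage and 6 of 8 neuron markers were higher in IgG than in input by edgeR, and their part in these differences was not tested. The 3 comparisons share libraries and are given side by side.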

How the data were processed

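Per the labels and the study's methods, mRNA libraries (by the labels TruSeq for embryos and brain library 3 of both genotypes, SENSE for other brains and mEFs) and rRNA-depleted immunoprecipitates were sequenced paired-end, strand-specific, and the authors deposited RSEM tables with expected counts, TPM and FPKM, using a RefSeq annotation edited at the last exon of *Chaserr*. The authors' ATAC-seq files are MACS2 peaks per library on mm9, after Bowtie2, with score, signal fold and -log10 p and q values as deposited. Peak positions and -log10 q were used.

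Expected counts were rounded and tested with edgeR 4.0.16 (filterByExpr, TMM, quasi-likelihood test, Benjamini-Hochberg over all genes tested). DESeq2 1.42.0 was an alternative. The filter, scaling, a replicate block, GC content and length, and each library were varied as well. FPKM served as an alternative to TPM. The scripts were tested on simulated data. The genes named were *Mki67*, *Top2a*, *Ccnb1*, *Cdk1*, *Pcna*, *Mcm2*, *Ccne1*, *E2f1*, up to 3 per list with the smallest p in each comparison, any of the 40, up to 3 called in each direction from the wider lists, and *Cdkn1a*. The 40 genes and the lists were chosen with earlier results of these data known. Brain libraries with the same number deviated together (r 0.437, 0.529 and 0.747) and were treated as paired in an alternative. Libraries 1 and 2, of the same kit, also deviated together across numbers (r 0.589 and 0.337), so that number and kit cannot be told apart. No other set of 3 pairs correlated in every pair. One library's counts were never identical to another's.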

Additional observations from a re-analysis of the deposited data

Results flagged for a closer look

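The effect of *Chaserr*-/- on some of the cell cycle genes differed from that of the other mEF mutants, by a test of the difference itself (edgeR, adjusted p under 0.05). Against *Chaserr*+/- this held for 2 S phase genes, *Pcna* (0.68 on the log2 scale) and *Rrm1* (0.41), and for 6 mitosis genes, with *Mad2l1* (1.22), *Top2a* (0.82) and *Ccnb1* (0.64) at the smallest p. Against *Chd2*m/m it held for 1 S phase gene, *E2f1* (-0.64), and for 7 mitosis genes, with *Mad2l1* (1.18), *Top2a* (0.85) and *Aurkb* (-0.6) first. Against *Chaserr*-/- *Chd2*m/m it held for 3 S phase genes, *Pcna* (0.71), *Ccne2* (1.11) and *Cdt1* (-0.76), and for 10 mitosis genes, led by *Kif11* (0.98), *Top2a* (0.88) and *Mad2l1* (1.17). These are 8, 8 and 13 of the 40 genes, where 13.3%, 11% and 15.6% of all 15124 genes were called, so that the S phase counts of 2, 1 and 3 of 15 lay near the background. With the GC content and length trends removed, 2 mitosis genes were called in each test and 0, 1 and 0 S phase genes, where 4.04%, 2.07% and 2.23% of all genes were. Without *Chaserr*-/- library 1 the mitosis counts were 3, 1 and 4 and the S phase counts 0 in each test, where 3.62%, 2.76% and 4.09% of all genes were called. Without library 2 the mitosis counts were 12, 12 and 13, where 25%, 22.9% and 25.6% were. The groups of 3 libraries were too small to look for single outlying libraries by a range test.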

How the results depend on the processing

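No called result turned its direction under any alternative. With DESeq2, 1 mitosis gene each was called in *Chaserr*+/- and *Chaserr*-/- *Chd2*m/m mEFs, where 0.585% and 1.72% of all genes were. In *Chaserr*-/- mEFs DESeq2 called 3 S phase and 11 mitosis genes, no filter 2 and 9, at least 10 counts in every library 1 and 9, and the GC content and length correction 1 mitosis gene, with a mitosis median of 0.07. The shares of all genes called in these 4 fits were 21.7%, 7.54%, 10.9% and 1.05%. With at least 10 counts the E13.5 against E9.5 medians were -1.24 and -1.16 and the S phase median of brain was -3.61. As log2 ratios of median levels, E13.5 to E9.5 was -1.19 for S phase genes (FPKM -1.11, mean log2(TPM + 1) -1.05) and -0.98 for mitosis genes (FPKM -0.9), and brain to E13.5 was -4.44 (FPKM -4.7, log -3.37) and -5.96 (FPKM -6.23, log -5.03). A stricter peak threshold of -log10 q of 5 left a mean of 39.7 genes with a peak in *Chaserr*-/- *Chd2*m/m ATAC libraries and of 36.7 in their WT, where library 2 had 30. The differences of effect against *Chaserr*+/- gave S phase counts of 4 with DESeq2, 1 without a filter and 0 with the GC correction. That correction gave 2 mitosis genes with a median of 0.22. Over all genes DESeq2 called 1730 higher and 1071 lower there, and the GC correction 307 and 304 of 15124. Against *Chd2*m/m DESeq2 gave 5 and 11, at least 10 counts 2 S phase genes, and the GC correction 2 mitosis genes with a median of 0.09. Over all genes DESeq2 called 1642 higher and 920 lower in that test, and the GC correction 188 and 125 of 15124. For the fits without a filter and with at least 10 counts no share of all genes is given here, so their S phase counts cannot be weighed. With the usual filter 13.3% of all genes were called against *Chaserr*+/- and 11% against *Chd2*m/m. Against the double mutant the GC correction gave 0 and 2 with medians of 0 and 0.27. The cause of these shifts was not tested.

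Leaving out 1 library at a time gave 0 to 4 S phase and 0 to 13 mitosis calls in *Chaserr*-/- mEFs, medians of -0.19 to -0.07 for mitosis genes in *Chaserr*+/- and of -0.09 to 0.06 for S phase genes in *Chd2*m/m mEFs, of -1.43 to -1.3 and -1.31 to -1.22 for E13.5, and of -3.76 to -3.62 and -5.95 to -5.76 for brain. The differences of effect ranged over 0 to 4 and 1 to 12, 0 to 5 and 0 to 12, and 0 to 5 and 4 to 13. Each of these highest counts came without *Chaserr*-/- library 2, for which the shares of all genes are given above. For CHD2 against IgG the calls ranged over 0 to 11 and 0 to 24 with medians of -0.26 to 1.53 and 0.34 to 2.67, against input over 0 to 15 and 0 to 13 with medians of -2.02 to -1.54 and -1.25 to -0.49, and for IgG against input over 0 to 13 and 0 to 25 with medians of -3.37 to -1.43 and -3.86 to -1.12. Shares of all genes called in these fits ran from 0% to 41.5%, 0% to 33.4% and 0.103% to 45.4%.

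Among precipitates, CHD2 against IgG gave 4 mitosis calls with DESeq2, without a filter or with at least 10 counts (21.7%, 14.1% and 15.5% of all genes). Against input it gave 10 S phase and 9 mitosis calls without a filter, 6 mitosis calls with DESeq2, 2 with at least 10 counts, and 3 and 0 with the GC correction (16.5%, 23.4%, 21.1% and 10.2% of all genes). IgG against input gave 15 mitosis calls with DESeq2 and 12 and 19 without a filter (31.5% and 28.8% of all genes). With the replicate block, and with the block and GC correction, CHD2 against IgG gave 8 and 6 mitosis calls and, in the latter, 2 S phase calls, CHD2 against input 8 and 12 S phase and 7 and 7 mitosis calls, and IgG against input 12 and 12 and 19 and 22, where the shares of all genes were 25.2% and 24.6%, 28.2% and 21.5%, and 36.7% and 41.4%. Same-numbered precipitates correlated at 0.159 to 0.311 over 2 pairs only. The block changed no call in brain or in other sets, where it could be fitted. No paired analysis was possible because libraries of *Chaserr*-/- and their WT carry different numbers, which holds for the differences of effect too.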
